A study of Mus musculus with 2 samples.

Results

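The 10 genes described here were chosen from the Wnt signalling system of the fracture callus. They are the ligands Wnt5a, Wnt5b and Wnt10b, the secreted antagonists Sfrp1, Sfrp2 and Frzb, and the co-receptors Lrp5 and Lrp6. Axin2, which canonical Wnt signalling switches on, is a further member. Dkk3, of the Dickkopf family, is listed with the antagonists. The genes were taken by symbol, and all 10 were found among the 32285 genes of each of the 2 deposited matrices. The matrices hold scRNA-seq counts of callus cells from wild-type C57BL/6J mice with a femoral fracture, whose callus was digested and whose cells were barcoded with 10x Genomics 3' reagents. The study design had 5 mice at 10 days and 5 mice at 20 days post-fracture. The labels of the libraries, MGJ and MGJ2, give no day, and barcodes do not tell the mice apart, so each library is 1 sample without a group. Values of MGJ and MGJ2 are therefore given next to each other, without a comparison of days, and no p-value across samples was possible.

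In all, 13320 cells of library MGJ (median of 5658 UMIs) and 7584 cells of library MGJ2 (median of 4933 UMIs) were kept, where a UMI is a count of 1 captured RNA molecule. Cells were grouped into classes by marker genes, without use of the Wnt genes, and classes carry the ending "-like" because they rest on markers. Library MGJ held 2657 chondrocyte-like, 1357 fibroblast-like and 264 osteoblast-like cells. Library MGJ2 held 137, 6 and 62, most of its other cells were haematopoietic, and its fibroblast-like cells were too few to describe. All 12 chondrocyte markers had a UMI in the chondrocyte-like cells of both libraries. So did all 10 fibroblast markers in the fibroblast-like cells of library MGJ, and 9 of 10 osteoblast markers in each osteoblast-like class. This does not tell classes apart, since neutrophil-like cells of both libraries also held all 12 chondrocyte markers. Summed, these reached 90259 (MGJ) and 74383 CPM (MGJ2) in their own class, against 1018 and 133 CPM in neutrophil-like cells. Osteoblast markers summed to 19685 CPM in their own class and 4332 CPM in the chondrocyte-like one (MGJ). In library MGJ2 these sums were 8533 and 9827 CPM, so they did not set the osteoblast-like class apart there. The class that the osteoblast markers named was shallow in library MGJ (median of 2086 UMIs per cell, against 20653 UMIs in chondrocyte-like cells). Levels are given as UMIs per 1000000 UMIs of a class (CPM). The bracketed ranges are exact 95% intervals, which cover counting error only and not differences between mice. A total of 19 barcodes occurred in both libraries. The chondrocyte-like class is made of 3 clusters, 1 of which, with 1039 cells of library MGJ, was led by Col10a1, Ibsp and Ihh. Its 10 leading genes held 1 osteoblast marker (Ibsp) and 0 chondrocyte markers. All 12 chondrocyte markers were nevertheless in 10% of its cells or more and above the mean over clusters.

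Wnt ligands are secreted proteins that bind Frizzled receptors. Together with Lrp5 or Lrp6 at the membrane they stabilise beta-catenin in the canonical branch, whereas Wnt5a and Wnt5b act largely through non-canonical branches. The secreted Frizzled-related proteins, among them Sfrp1, Sfrp2 and Frzb (also called Sfrp3), carry a Frizzled-like domain and hold ligands away from their receptors. In endochondral repair, cartilage forms first, its chondrocytes enlarge and express Col10a1, and bone then replaces it. Wnt signalling is known to take part in chondrocyte maturation and in osteoblast differentiation.

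The genes lie on 9 mouse autosomes. In GENCODE M21 on GRCm38, Frzb spans chr2:80411970-80447625 (minus strand) and Wnt5b spans chr6:119432531-119544347 (minus strand), both protein-coding. Sfrp1 lies at chr8:23411502-23449632 (plus strand) and Sfrp2 at chr3:83766321-83774316 (plus strand). Axin2 lies at chr11:108920349-108950783 (plus strand). Within their spans, Wnt5a and Axin2 each hold an annotated antisense gene, and Wnt5b holds Fbxl14 on the opposite strand. The end of Sfrp2 overlaps an antisense gene that lies mostly beyond it. The 10x Genomics 3' protocol, however, keeps the strand of the RNA. RefSeq promoter windows (GRCm38.p6) were at hand for 5 of the 10 genes, Wnt5b, Wnt10b, Sfrp2, Frzb and Axin2. The 250 bases before each start were searched on both strands for the TCF/LEF core CTTTGA, the SOX core ACAATG and the RUNX core TGTGGT, motifs of factors that act in Wnt signalling and in cartilage and bone. Among all 32851 windows, 13.8% held the first, 10.7% the second and 14.0% the third. Of the members, Frzb had 1 TCF/LEF match, 95 bases before its start, Wnt5b had 1, 71 bases before the most downstream of its 3 starts, and no other match was present. The windows of the pair that was highest in chondrocyte-like cells, Frzb and Wnt5b, and of Sfrp2, which was highest in fibroblast-like cells, are shown with the match in capitals. For Frzb only the 30 bases around the match are printed (chr2:80447474-80447503, minus strand, inside the 5′ UTR of the GENCODE transcript, which starts upstream of the RefSeq one). The window before the downstream start of Wnt5b (chr6:119449387-119449636, minus strand) lies in an intron of longer Wnt5b transcripts, and the Sfrp2 window is chr3:83766071-83766320 (plus strand).
Frzb: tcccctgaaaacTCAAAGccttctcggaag
Wnt5b: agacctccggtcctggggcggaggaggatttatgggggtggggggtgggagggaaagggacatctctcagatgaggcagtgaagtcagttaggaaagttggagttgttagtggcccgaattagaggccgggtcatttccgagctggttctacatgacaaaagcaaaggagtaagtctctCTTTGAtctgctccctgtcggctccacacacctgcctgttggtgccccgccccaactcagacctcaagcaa
Sfrp2: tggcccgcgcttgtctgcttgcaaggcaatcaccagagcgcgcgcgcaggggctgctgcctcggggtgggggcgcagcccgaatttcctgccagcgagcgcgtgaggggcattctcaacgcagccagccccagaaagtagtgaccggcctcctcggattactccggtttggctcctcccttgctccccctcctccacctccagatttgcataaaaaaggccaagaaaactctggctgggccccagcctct

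To find out where the members are expressed, chondrocyte-like cells were first set against all other kept cells of their library. Frzb, an antagonist known from articular cartilage, was at 318 CPM (313 to 322) in the chondrocyte-like cells of MGJ and at 621 CPM (597 to 646) in those of MGJ2. In the remaining cells it was at 34.6 CPM and 4.44 CPM. Of all Frzb UMIs, 87.1% (MGJ) and 91.3% (MGJ2) came from chondrocyte-like cells. Thus Frzb was 9.18 (8.81 to 9.57) times higher in chondrocyte-like cells of library MGJ and 139.9 (123 to 160.4) times higher in those of library MGJ2. The size of this ratio depended on how cells were named (2.53 to 46.0 and 9.10 to 527 over the alternatives), but Frzb stayed past 2-fold in each.

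Wnt5b, a ligand known in cartilage maturation, followed the same order. Its level was 47.0 CPM (45.2 to 48.8) in chondrocyte-like cells against 8.02 CPM elsewhere in library MGJ, and 57.9 CPM (50.7 to 65.8) against 0.629 CPM in library MGJ2. The ratios were 5.86 (5.36 to 6.41) and 92.1 (64.1 to 136), and over the alternatives 2.69 to 14.3 and 16.6 to 183. Wnt10b, a ligand of the canonical branch, was at 14.7 CPM (13.7 to 15.7) in chondrocyte-like cells of library MGJ, 4.73 (4.09 to 5.49) times the level elsewhere. In library MGJ2 only 18 Wnt10b UMIs came from chondrocyte-like cells, at 4.46 CPM (2.64 to 7.04), and myeloid progenitor-like cells held 30 (2.87 CPM). Of the latter class, 160 of 396 cells were in a cluster led by Camp, Chil3 and Ngp, with 0 markers of the class and 1 of another among its 10 leading genes.

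A member was counted as higher or lower when its ratio was at least 2 or at most 0.5 and both cell sets together held at least 20 of its UMIs. In library MGJ, 3 of the 10 members were higher in chondrocyte-like cells (Frzb, Wnt5b, Wnt10b) and 3 were lower (Sfrp1, Sfrp2, Dkk3), where 14.8% of all 16495 genes tested were higher and 25.9% lower. In library MGJ2, 9 of 10 were higher and 0 lower, beside 22.6% and 29.0% of 14715 genes. The sole member not past the threshold there was Axin2, at 1.10 (0.615 to 1.83). The members had a median ratio of 0.991 (MGJ) and 3.40 (MGJ2), and all genes one of 0.891 and 0.860. The cells set against the chondrocyte-like cells differed between the libraries, since fibroblast-like cells held 92.9% of the Sfrp1 UMIs, 91.3% of the Sfrp2 UMIs and 84.8% of the Dkk3 UMIs of library MGJ and were nearly missing from library MGJ2. The call of Sfrp2 in library MGJ2, at 7.57 (3.52 to 15.6), rested on 13 UMIs from 2 of 137 cells. That of Sfrp1 rested on 5 UMIs in chondrocyte-like cells, its ratio of 2.91 (0.864 to 7.82) has an interval that includes no difference, and it was lost (1.58) when each cell was named by its own marker score. Those of Dkk3 (1.49) and Lrp5 (1.99) were lost at a clustering resolution of 2.

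Free RNA released from broken cells adds a low level of abundant transcripts to every droplet. In neutrophil-like cells, which do not make cartilage, Col2a1 was at 1.02% (0.976 to 1.06) of its chondrocyte-like level in library MGJ and at 0.161% (0.148 to 0.175) in library MGJ2. Frzb was there at 0.811% (0.389 to 1.49) and 0.222% (0.111 to 0.399), not above the cartilage collagen beyond counting error, and Wnt5b had 0 UMIs in both. After thinning each cell to 2000 UMIs, 37.9% (36.0 to 39.7) of the chondrocyte-like cells of library MGJ held a Frzb UMI (81.7% unthinned), against 0.572% (0.156 to 1.46) of neutrophil-like cells (median depths of 20653 and 3095 UMIs before thinning). In library MGJ2 the thinned shares were 56.9% (48.2 to 65.4) and 0.356% (0.131 to 0.773) (92.0% of chondrocyte-like cells unthinned, and median depths of 28392 and 2498 UMIs). Unnamed cells of library MGJ, among them chondrocyte-like sub-clusters set aside because neutrophil or macrophage genes led them, carried Frzb at 38.9% and Col2a1 at 41.3% of the chondrocyte-like level. Most of the unnamed cells were in shallow clusters of 1953 and 1902 cells. These scored highest for neutrophil markers but had none among their leading genes. How the Frzb UMIs were divided among the unnamed cells is not given here.

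**Figure D1:**
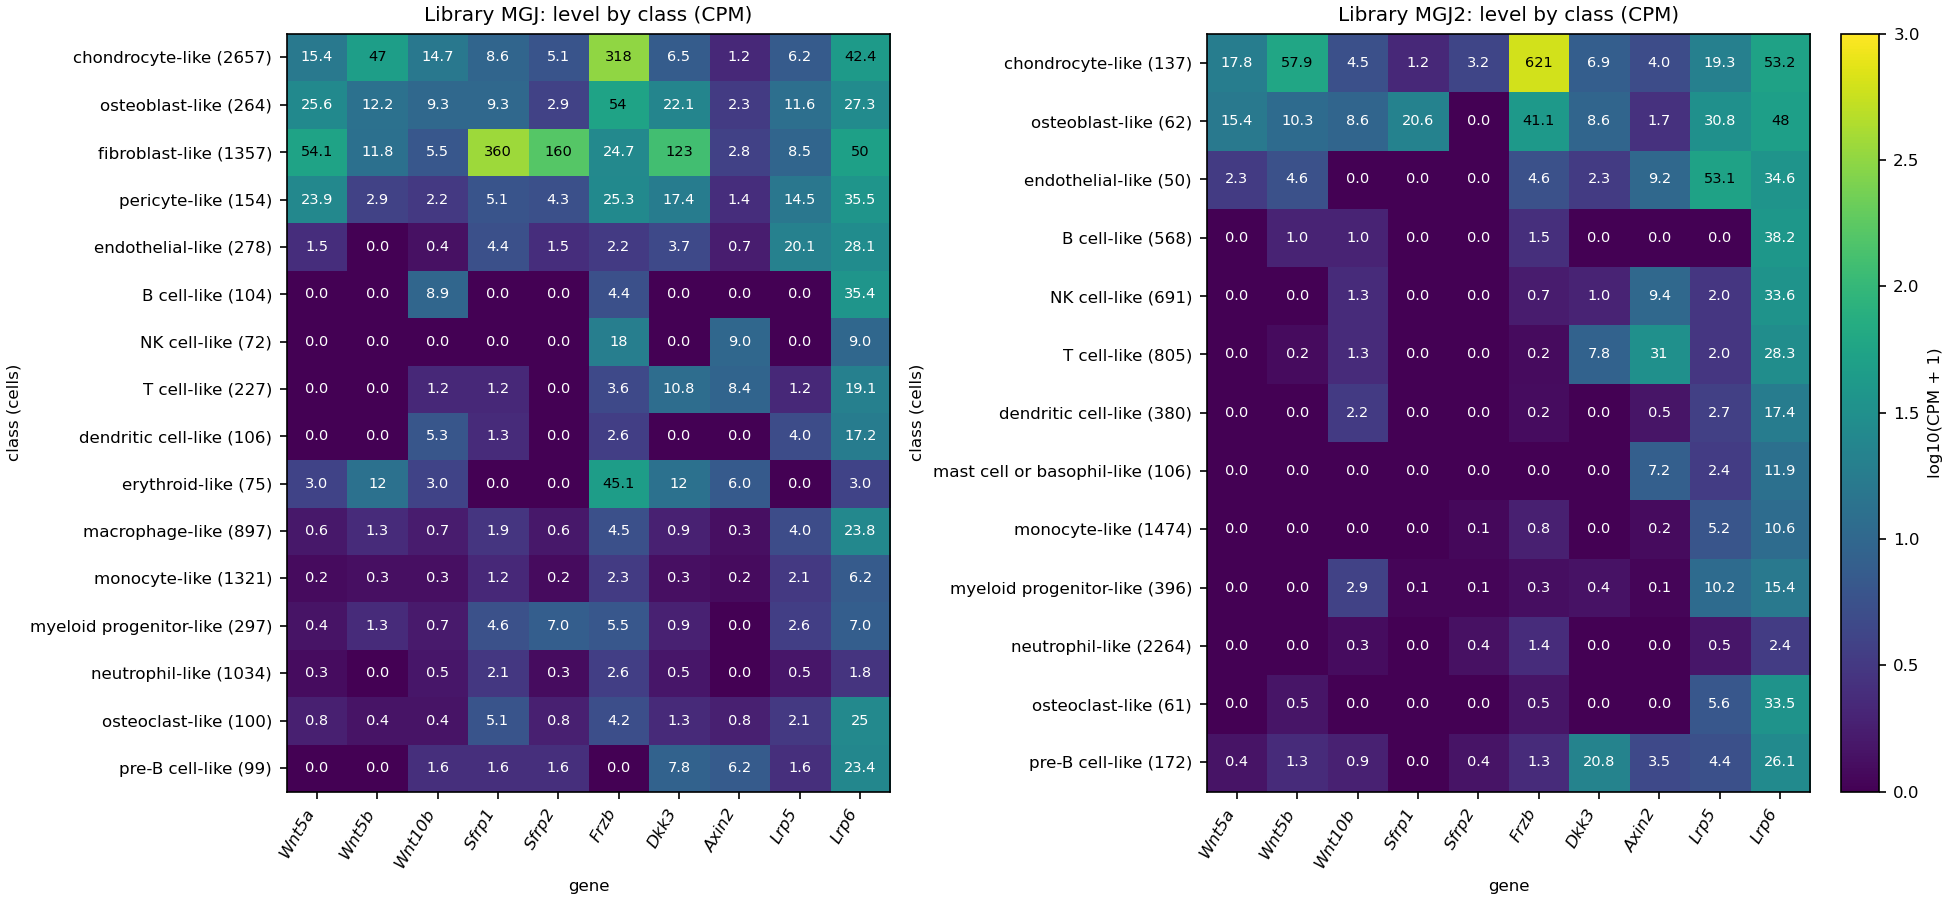
Levels of the 10 members (columns) in every named class of at least 50 cells (rows, with cell numbers) in library MGJ (left) and library MGJ2 (right); the printed values are CPM and the colour is log10(CPM + 1). Frzb and Wnt5b peak in chondrocyte-like cells of both libraries, Sfrp1, Sfrp2 and Dkk3 in fibroblast-like cells of library MGJ, and Axin2 reaches 31.0 CPM in T cell-like cells of library MGJ2.

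Chondrocyte-like cells were next divided by the Col10a1 level of each cell, as Col10a1 marks hypertrophy. Cells under 1000 CPM were called low (1815 in library MGJ, 57 in library MGJ2), those from 1000 to under 10000 CPM moderate (342 and 27), and the rest high (500 and 53). These are ranges of a continuous level, and 65 and 70 cells of library MGJ lay within 20% of the lower and upper limits (4 and 6 in library MGJ2). Frzb was at 208 CPM (204 to 213) in low cells, 410.2 CPM (396 to 424) in moderate cells and 637 CPM (622 to 653) in high cells of library MGJ. In library MGJ2 its levels were 328 CPM (301 to 357), 541 CPM (489 to 597) and 943 CPM (897 to 991). The intervals of the 3 ranges did not overlap in either library, and high cells exceeded low cells 3.06 (2.96 to 3.16) times (MGJ) and 2.87 (2.60 to 3.18) times (MGJ2). The thinned share of cells with a Frzb UMI went from 29.0% (26.9 to 31.1) in low to 66.5% (62.1 to 70.6) in high cells of library MGJ.

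Wnt5b differed mainly between low and moderate cells. It was at 30.5 CPM (28.8 to 32.4), 79.7 CPM (73.6 to 86.1) and 80.5 CPM (75.1 to 86.1) across the ranges of library MGJ, and at 39.9 CPM (30.8 to 50.8), 86.1 CPM (66.3 to 110.0) and 63.0 CPM (51.5 to 76.3) in library MGJ2. The moderate-to-low ratio was 2.61 (2.36 to 2.88) and 2.16 (1.51 to 3.1), whereas high and moderate cells could not be told apart (1.01, 0.910 to 1.12, and 0.732, 0.531 to 1.01). Wnt10b of library MGJ had a similar step, from 11.6 CPM (10.6 to 12.8) in low to 22.5 CPM (19.3 to 26.0) in moderate and 19.7 CPM (17.1 to 22.5) in high cells, and stayed under 2-fold. Wnt5a varied less, between 13.9 and 19.0 CPM in library MGJ, with a high-to-low ratio of 1.32 (1.11 to 1.56), and of 0.830 (0.483 to 1.42) in library MGJ2.

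Sfrp1, Sfrp2 and Dkk3 had the opposite order to Frzb in library MGJ. Sfrp1 was at 11.4 CPM (10.3 to 12.5) in low cells and 1.92 CPM (1.17 to 2.96) in high cells, a ratio of 0.169 (0.102 to 0.264). The ratios of Sfrp2 and Dkk3, a divergent member of the Dickkopf family, were 0.232 (0.131 to 0.385) and 0.204 (0.119 to 0.328). Moderate cells lay in between, at 4.37, 2.37 and 3.24 CPM. High and moderate cells differed beyond counting error for Sfrp1 (0.439, 0.240 to 0.783). For Sfrp2 (0.648, 0.312 to 1.33) and Dkk3 (0.532, 0.275 to 1.01) they did not. The high cells held 20, 16 and 18 UMIs of Sfrp1, Sfrp2 and Dkk3. In library MGJ2 the 13 Sfrp2 UMIs of chondrocyte-like cells came from 2 of 137 cells, both in the low range, 1 of which held 11 of them, so no order was read from them, and Dkk3 did not differ beyond counting error (0.848, 0.371 to 1.91). Fibroblast markers were present in chondrocyte-like cells as a whole (3 of 10 at 100 CPM or more in library MGJ, summed level of 5294 CPM, against 21457 CPM in fibroblast-like cells), and their part in the levels of Sfrp1, Sfrp2 and Dkk3 was not tested.

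In library MGJ, 2 of 10 members were higher in high than in low cells (Frzb, Wnt5b) and 3 lower (Sfrp1, Sfrp2, Dkk3), beside 9.20% and 12.6% of 13863 genes. In library MGJ2, 1 of 6 members with enough UMIs was higher (Frzb) and 0 lower, beside 8.36% and 11.0% of 8653 genes. Wnt5b stood at 1.58 (1.15 to 2.19) there. The comparison depended on the clustering: at resolutions of 0.5 and 2 only 145 and 131 high cells of library MGJ, and 2 and 2 of library MGJ2, were found among chondrocyte-like cells. With these cells the ratios of Sfrp1 and Sfrp2 turned to 1.09 and 1.11 at a resolution of 0.5, and that of Frzb was 2.02 and, at a resolution of 2, 1.95.

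**Figure D2:**
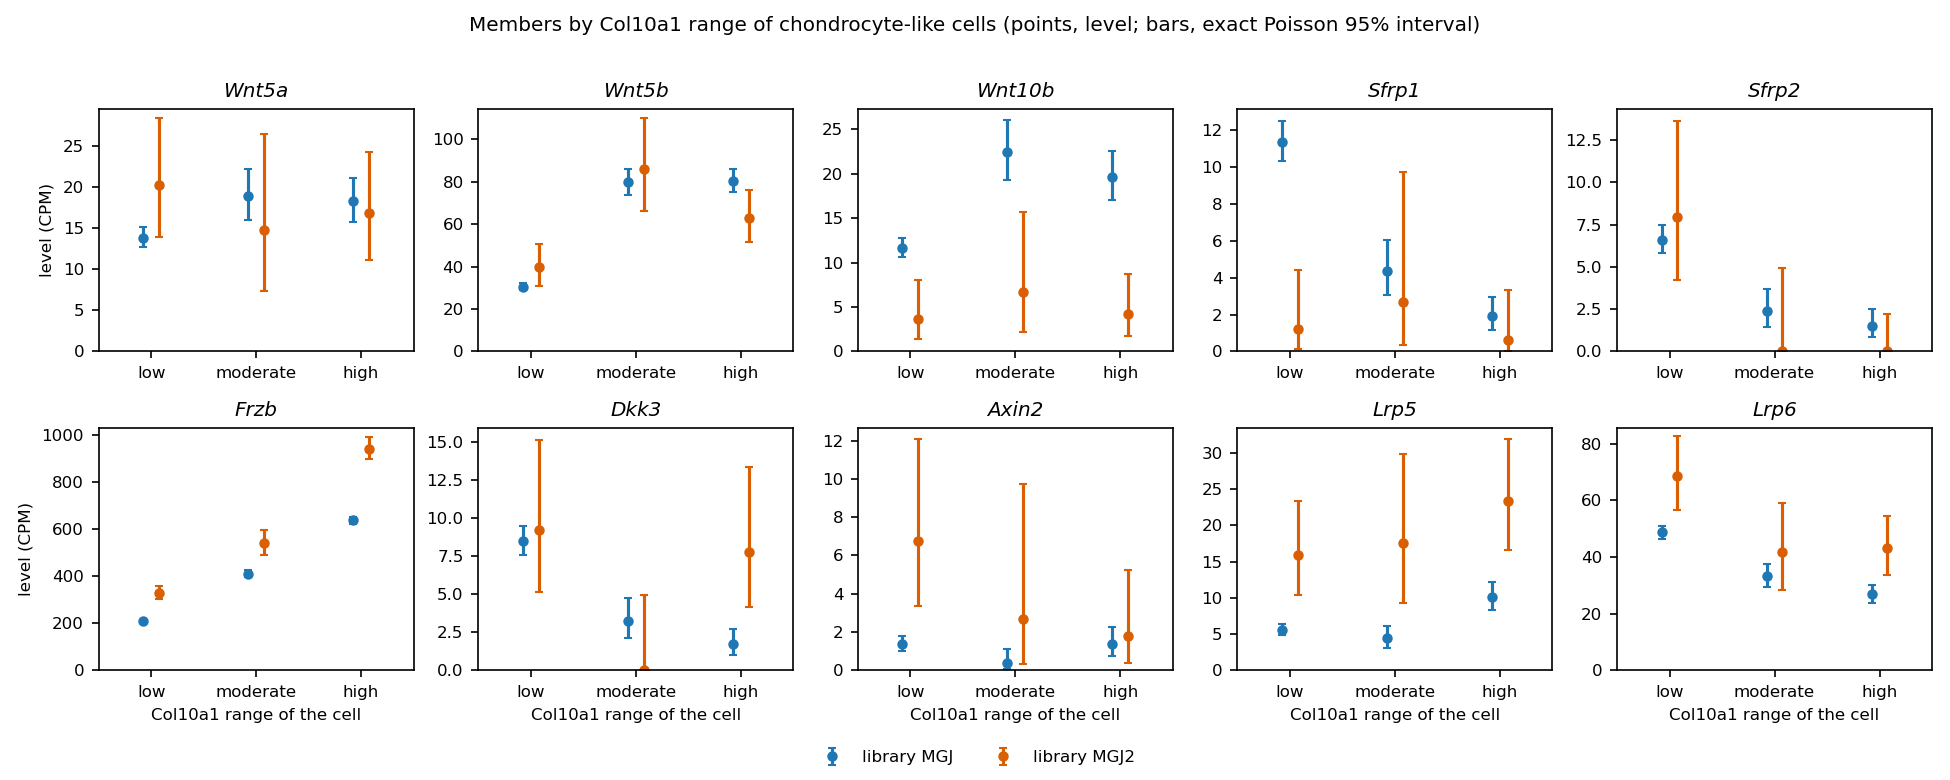
Level in CPM (linear axes) of each member in chondrocyte-like cells of low, moderate and high Col10a1 level; points are library MGJ (blue) and library MGJ2 (orange), bars are exact Poisson 95% intervals. Frzb steps up at each range in both libraries, to 637 and 943 CPM in high cells, while Sfrp1, Sfrp2 and Lrp6 are highest in the low cells of library MGJ.

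Sub-clusters of the chondrocyte-like cells, made without the Wnt genes, showed which cells carried the members in library MGJ. Frzb ran from 71.1 CPM in 53 cells led by the acute-phase genes Hp and Saa3 to 679 CPM in 485 cells led by Col10a1 and Ihh. Wnt5b was at its lowest and highest in the same sub-clusters, at 14.9 CPM (8.69 to 23.9) and 82.0 CPM (76.4 to 87.9). Wnt10b was at 24.0 CPM (21.7 to 26.6) in 634 cells led by Ppa1 and Nos2 and at 20.9 CPM (18.1 to 23.9) in the Col10a1-led cells, and between 1.75 and 10.7 CPM in the other 5 sub-clusters. Dkk3 was at 31.4 CPM (27.1 to 36.2) in 336 cells led by H2-Ab1 and Igfbp5 and at no more than 8.69 CPM in each of the remaining sub-clusters. In library MGJ2 only 2 sub-clusters had 30 cells or more, and Frzb was at 918 CPM in the Col10a1-led one and 349 CPM in the one led by Id1 and Fos.

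Fibroblast-like cells of library MGJ carried most of the Sfrp1, Sfrp2 and Dkk3 UMIs. Sfrp1 was at 360.0 CPM (352 to 368) in fibroblast-like against 8.59 CPM (7.84 to 9.40) in chondrocyte-like cells, a ratio of 41.9 (38.2 to 46.0). Sfrp2 was at 160.1 CPM (155 to 165) against 5.05 CPM (31.7, 28.1 to 35.9), and Dkk3 at 123 CPM (119 to 128) against 6.45 CPM (19.1, 17.1 to 21.4). For Sfrp1, Sfrp2 and Dkk3, fibroblast-like cells came first in the order of all 16 classes, ahead of the next class beyond counting error. Wnt5a, which is known for a role in limb outgrowth, was at 54.1 CPM (51.2 to 57.2), 3.51 (3.21 to 3.83) times its chondrocyte-like level. It was followed by osteoblast-like (25.6 CPM), pericyte-like (23.9 CPM) and chondrocyte-like cells (15.4 CPM), of which the first pair did not differ beyond counting error.

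Frzb, Wnt5b and Wnt10b were lower in fibroblast-like than in chondrocyte-like cells, with ratios of 0.0777 (0.0715 to 0.0844), 0.25 (0.221 to 0.283) and 0.376 (0.310 to 0.452). Frzb was thus at 7.77% of its chondrocyte-like level, next to 5.47% for Col2a1, 5.44% for Hapln1 and 16.8% for Acan, cartilage genes counted in the same cells. Without 361 fibroblast-like cells of 3 sub-clusters led by markers of other classes, an alternative chosen after the leading genes were seen, the Frzb ratio was 0.0295 and no call was lost. Tendon markers did not count as another class here. The 358 cells led by Kera and Tnmd, with 30 of the Axin2 UMIs of the class, therefore stayed in, and the ratios without them were not computed. In all, 5 of 10 members were higher in fibroblast-like cells (Sfrp1, Sfrp2, Dkk3, Wnt5a, Axin2) and 3 lower, beside 21.3% and 12.4% of 15135 genes. The call of Axin2, at 2.29 (1.61 to 3.26), rested on 67 and 68 UMIs and was lost at a resolution of 2 (1.03), with at most 10% mitochondrial UMIs (1.03) and with at least 500 genes per cell (1.09), where 596 to 623 cells were named fibroblast-like.

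**Figure D3:**
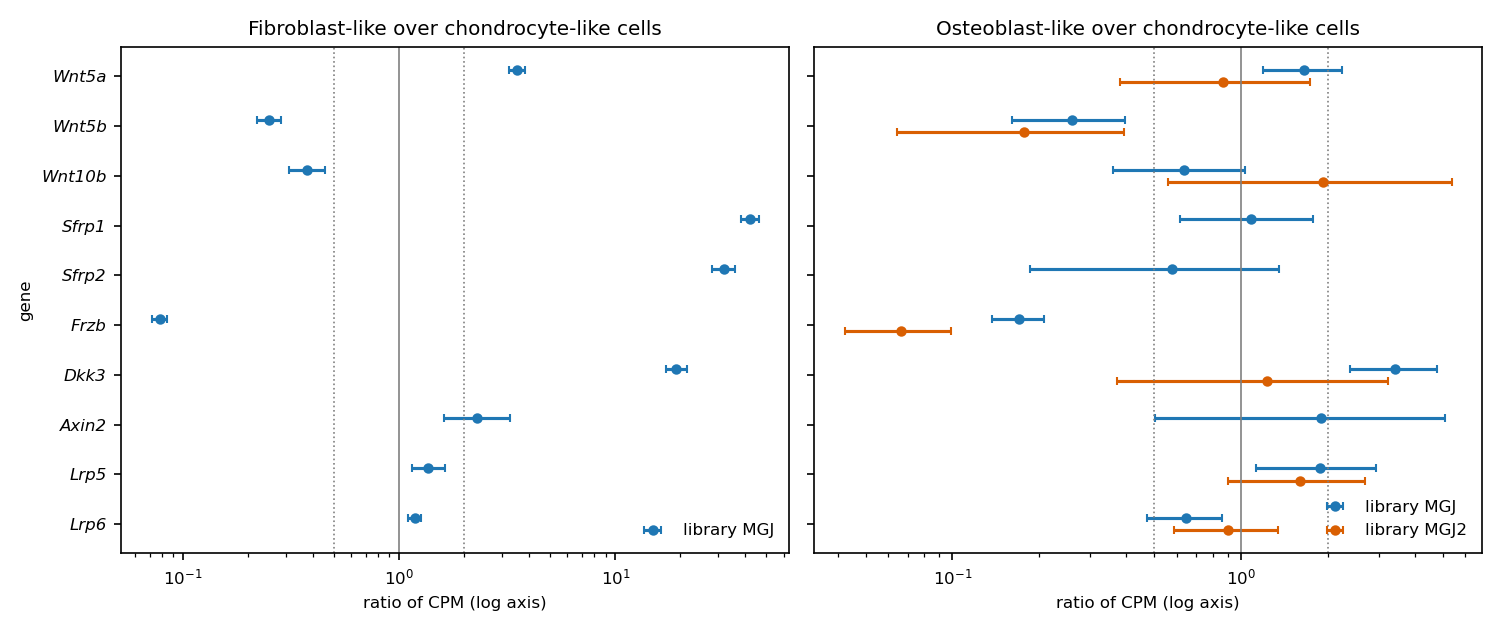
Ratios of CPM (log axis) of each member in fibroblast-like (left, library MGJ) and osteoblast-like cells (right, both libraries) over chondrocyte-like cells, with exact 95% intervals; the solid line marks equal levels and the dotted lines 2-fold. Sfrp1, Sfrp2 and Dkk3 lie far to the right on the left side, and Frzb lies under the lower dotted line in all 3 comparisons.

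Within the fibroblast-like cells the members were spread unevenly. Sfrp1 and Sfrp2 peaked together in 303 cells led by Sfrp4, C3 and Pi16, at 959.6 CPM (932 to 988) and 383 CPM (366 to 401). Their lowest levels, 90.2 CPM (81.6 to 99.6) and 33.7 CPM (28.4 to 39.6), were both in 229 cells led by S100a4 and Nos2. Dkk3 was highest in 358 cells led by the tendon-type genes Kera, Cilp2 and Tnmd, at 201 CPM (189 to 214), and stood at 68.2 CPM (61.0 to 76.0) in the Pi16-led cells. Wnt5a was at 105 CPM (94.1 to 117) in 171 cells led by Grem1, Mmp10 and Tagln. They are 1 of the 3 sub-clusters with more leading markers of other classes than of fibroblasts, tendon markers not counted. Wnt5a was also at 106 CPM (94.1 to 119) in 106 cells led by cell cycle genes, against 21.4 CPM in the Kera-led and 24.3 CPM in the Pi16-led cells. Of the 590 Frzb UMIs of the class, 374 came from 47 cells led by cartilage genes, in which Col2a1 was at 37436 CPM. The Wnt genes were not used to make the sub-clusters, but the cells of all of them came from 1 library.

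**Figure D4:**
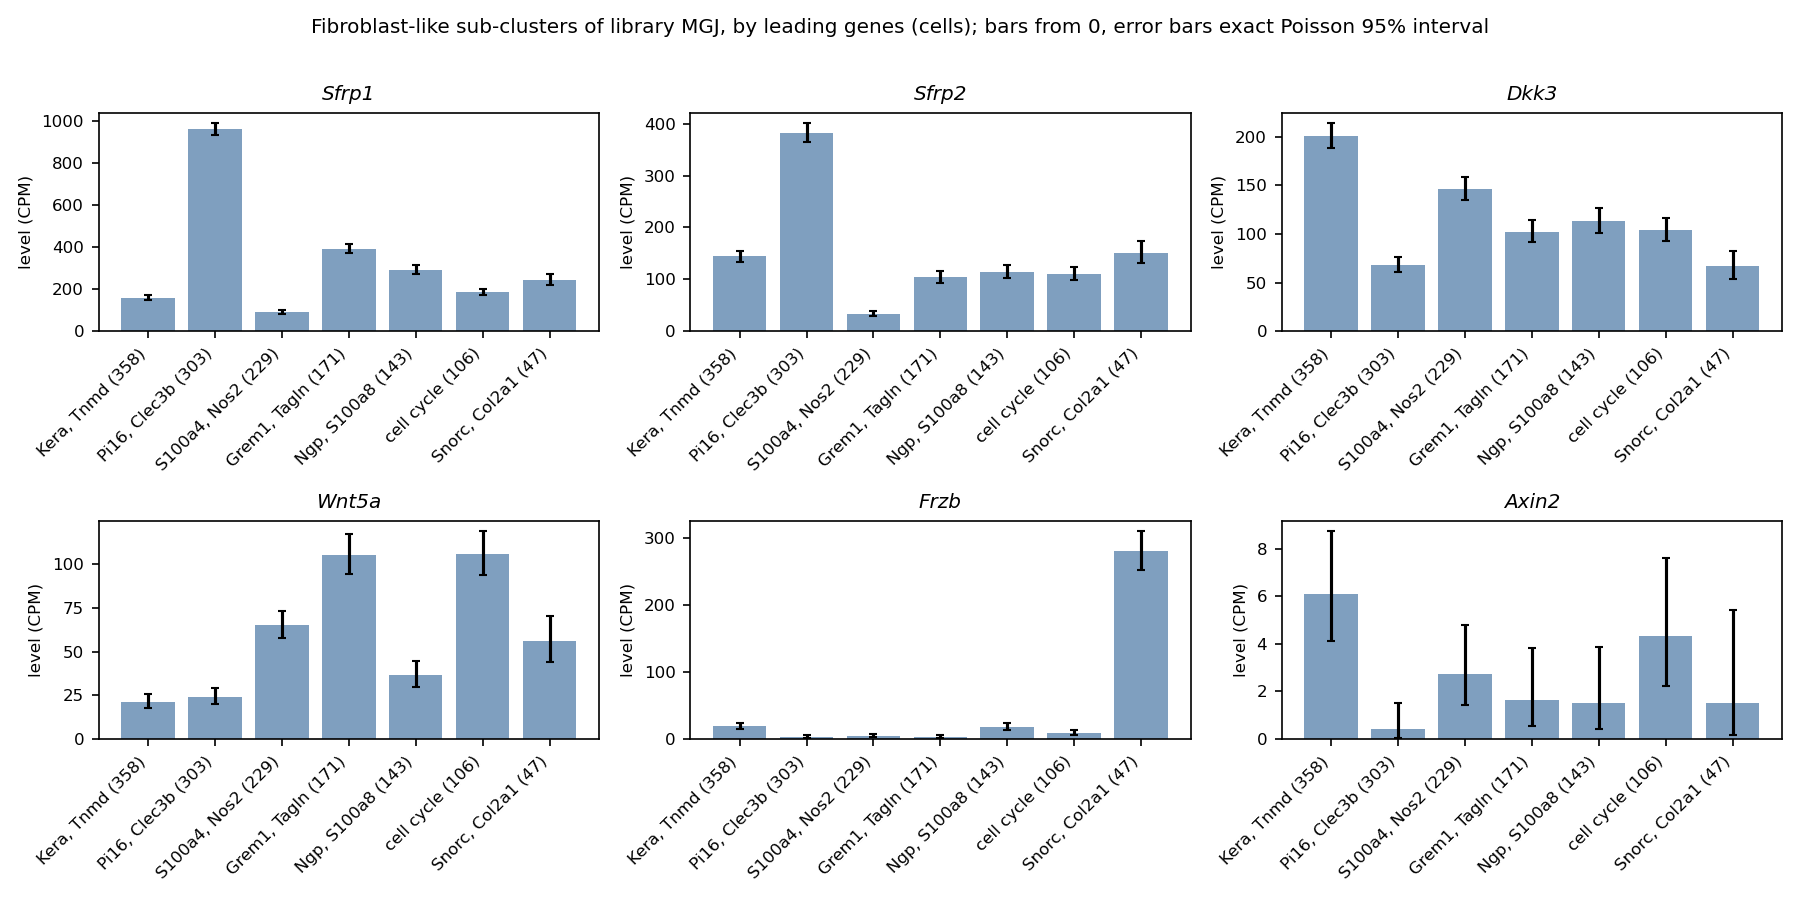
Levels (CPM, axes from 0) of 6 members in the 7 fibroblast-like sub-clusters of library MGJ, named by leading genes with cell numbers; error bars are exact Poisson 95% intervals. Sfrp1 and Sfrp2 are highest in the Pi16-led cells (960 and 383 CPM), Dkk3 in the Kera-led cells (201 CPM), and Frzb in the 47 cells led by cartilage genes (279.9 CPM).

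Osteoblast-like cells were set against chondrocyte-like cells in both libraries. Frzb was at 54.0 CPM (43.6 to 66.2) in library MGJ and 41.1 CPM (26.3 to 61.2) in library MGJ2, with ratios of 0.170 (0.137 to 0.208) and 0.0662 (0.0423 to 0.0987). Wnt5b was at 12.2 CPM (7.55 to 18.7) and 10.3 CPM (3.77 to 22.4), with ratios of 0.260 (0.160 to 0.398) and 0.177 (0.0645 to 0.392). Dkk3 was higher in osteoblast-like cells of library MGJ (3.42, 2.38 to 4.79, 38 UMIs), and in library MGJ2 its ratio was 1.24 (0.373 to 3.24) on 5 UMIs. Sfrp1 stood at 20.6 CPM (10.6 to 35.9) on 12 UMIs in osteoblast-like cells of library MGJ2 and at 1.24 CPM (0.402 to 2.89) in chondrocyte-like cells, too few UMIs for a call, and its ratio in library MGJ was 1.08 (0.614 to 1.78). Wnt5a was at 25.6 CPM (18.6 to 34.3) and 15.4 CPM (7.05 to 29.3), within 2-fold of chondrocyte-like cells in both libraries. Over the alternatives its ratio ran from 0.795 to 2.51 (MGJ) and from 0.481 to 1.52 (MGJ2), so it did not stay within 2-fold in each. Sfrp2 had 5 UMIs (MGJ) or 0 (MGJ2) in osteoblast-like cells, and 3 UMIs would be 5.14 CPM in library MGJ2.

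In library MGJ, 1 of 10 members was higher (Dkk3) and 2 lower (Frzb, Wnt5b) in osteoblast-like than in chondrocyte-like cells, beside 21.8% and 9.12% of 14279 genes. In library MGJ2, 0 of 7 members with enough UMIs were higher and 2 lower (Frzb, Wnt5b), beside 18.7% and 10.0% of 9823 genes. The Wnt5b call of library MGJ2 was lost (0.546) when each cell was named by its own marker score. RNA of other cell types was measured in the same droplets. Col2a1 was at 8.63% and 1.36% of its chondrocyte-like level, and neutrophil markers summed to 3391 and 9185 CPM. In library MGJ 5 of 8 muscle cell markers were at 100 CPM or more, with a sum of 1623 CPM. In library MGJ2 all 5 marrow stromal cell markers were at 100 CPM or more, with a sum of 5188 CPM. They summed to 6.68 CPM in chondrocyte-like and 1380 CPM in endothelial-like cells of that library, and to 87.2 CPM in osteoblast-like cells of library MGJ. The osteoblast-like class of library MGJ2 thus also carried marrow stromal markers. The part of these genes in the levels of the members was not tested. With every cell weighted equally, 8 members of library MGJ were past 2-fold in either direction, and with each cell named by its own marker score 6 were. The shares of all genes above belong to the reported setting, and none is given for these alternatives. These counts are therefore not read as results about the members. At a resolution of 0.5, with at most 10% mitochondrial UMIs and with at least 500 genes per cell, no cluster was named osteoblast-like, so the class itself depended on these settings.

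The co-receptors were found in skeletal and blood classes. Lrp6, a co-receptor with close kinship to Lrp5, was at 42.4 CPM (40.7 to 44.1), 27.3 CPM (20.1 to 36.3) and 50.02 CPM (47.2 to 52.9) in chondrocyte-like, osteoblast-like and fibroblast-like cells of library MGJ, and at 53.2 CPM (46.3 to 60.8) and 48.0 CPM (31.9 to 69.3) in the first 2 of these classes in library MGJ2. In neutrophil-like cells it was at 1.80 and 2.39 CPM, while B cell-like cells of library MGJ2 reached 38.2 CPM. Within chondrocyte-like cells Lrp6 was lower in the high than in the low Col10a1 range, at 0.549 (0.483 to 0.624) and 0.629 (0.461 to 0.853) of its level, both short of 2-fold. Lrp5 went the other way, with ratios of 1.83 (1.43 to 2.32) and 1.47 (0.871 to 2.51), the second within counting error of no difference. Lrp5 was highest in endothelial-like cells of both libraries, at 20.1 CPM (15.1 to 26.2) and 53.1 CPM (33.7 to 79.7), and did not differ there beyond counting error from the next class, pericyte-like in library MGJ (14.5 CPM) and osteoblast-like in library MGJ2 (30.8 CPM). Chondrocyte-like cells held Lrp5 at 6.20 CPM (5.56 to 6.89) and 19.3 CPM (15.3 to 24.1).

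Axin2, the scaffold protein of the beta-catenin destruction complex and a feedback target of the canonical branch, was scarce in the skeletal classes. It was at 1.22 CPM (0.949 to 1.55) in chondrocyte-like, 2.32 CPM (0.633 to 5.95) in osteoblast-like and 2.80 CPM (2.17 to 3.56) in fibroblast-like cells of library MGJ. Within the fibroblast-like cells Axin2 was highest in the Kera-led sub-cluster, at 6.11 CPM (4.12 to 8.73, 30 UMIs). It was lowest in the Pi16-led one, in which Sfrp1 and Sfrp2 peaked, at 0.416 CPM (0.0504 to 1.5). That level rested on 2 UMIs, and 3 UMIs would be 0.624 CPM. The cells led by S100a4 and Nos2, lowest in Sfrp1 and Sfrp2, held Axin2 at 2.75 CPM (1.42 to 4.80, 12 UMIs). Axin2 was thus not highest where Sfrp1 and Sfrp2 were lowest, and no relation between their levels was tested. In library MGJ2, Axin2 was at 3.96 CPM (2.26 to 6.43) in chondrocyte-like cells, and its highest level was 31.0 CPM (26.1 to 36.6) in T cell-like cells, which held 139 of its 211 UMIs. NK cell-like cells came next at 9.41 CPM (6.25 to 13.6), and the T cell-like level was 3.30 (2.18 to 5.14) times theirs. In library MGJ, T cell-like cells had 7 Axin2 UMIs (8.36 CPM, 3.36 to 17.2), and the order of the highest classes could not be told from so few counts. Neutrophil-like cells had 0 Axin2 UMIs in both libraries, where 3 UMIs would be 0.773 and 0.377 CPM. Dkk3 was also seen outside the skeletal classes, at 20.8 CPM (15.3 to 27.6) in pre-B cell-like and 7.81 CPM (5.44 to 10.9) in T cell-like cells of library MGJ2.

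**Figure D5:**
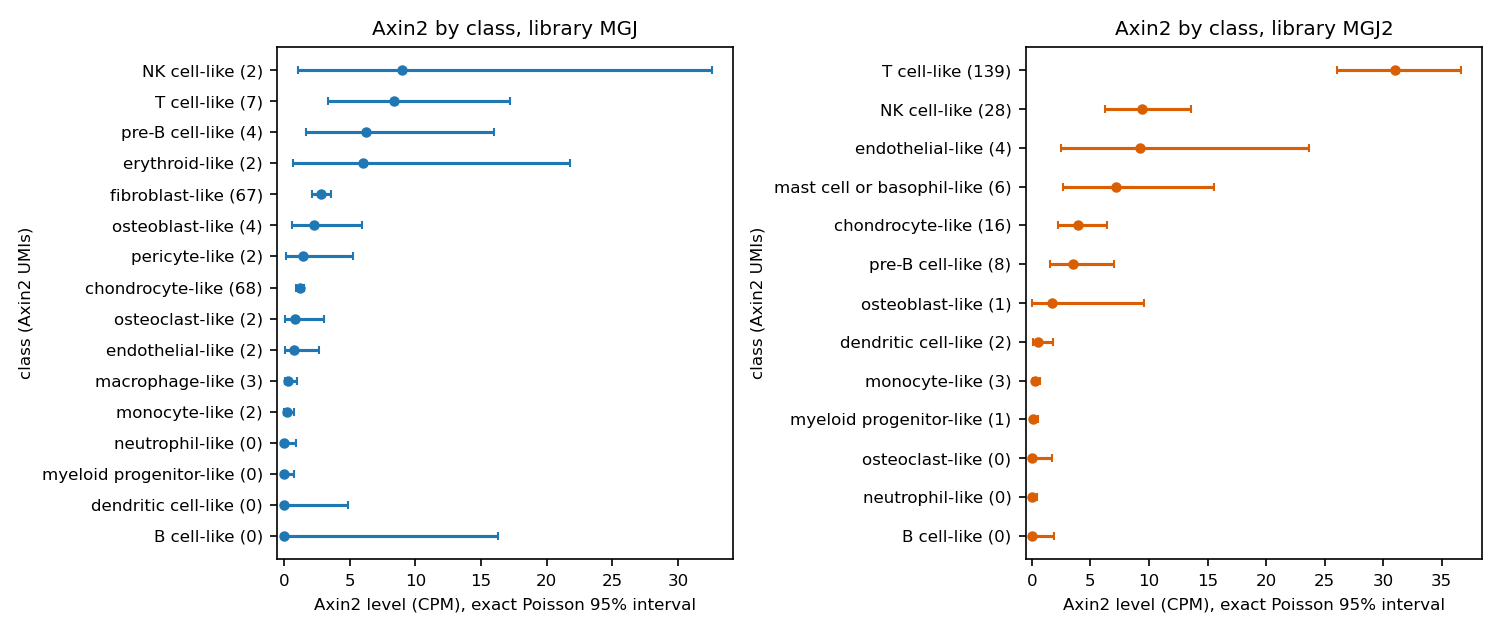
Axin2 level (CPM, with exact Poisson 95% intervals) in every named class of at least 50 cells, with its UMIs in brackets, in library MGJ (left) and library MGJ2 (right). T cell-like cells of library MGJ2 stand apart at 31.0 CPM, and chondrocyte-like cells are at 1.22 and 3.96 CPM.

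The other 72 genes of 7 Wnt pathway lists were measured in the same cells. In chondrocyte-like against all other cells of library MGJ, 57 had enough UMIs, 14 were higher and 13 lower, with a median ratio of 1.01. Over all genes, 14.8% were higher and 25.9% lower. Among 8 further ligands with enough UMIs 5 were higher and 3 lower, the higher ones including Wnt4 (3.07, 2.80 to 3.37), Wnt7b (5.92, 5.25 to 6.69) and Wnt11 (2.80, 2.53 to 3.09), the 3 highest of the list in the skeletal classes. In library MGJ2, 51 genes had enough UMIs, 29 were higher and 4 lower, beside 22.6% and 29.0% over all genes. Of 4 further ligands 2 were higher there, Wnt4 (7.84, 6.55 to 9.37) and Wnt7b (39.9, 29.1 to 55.5), and Wnt11 was not (1.84, 1.43 to 2.34). Between the high and low Col10a1 ranges of library MGJ, 9 of 50 genes were higher and 13 lower (9.20% and 12.6% over all genes), and in library MGJ2 3 of 37 were higher and 13 lower (8.36% and 11.0%). Wnt11 was among the lower ones of library MGJ2 (0.406, 0.216 to 0.730) and stood at 0.658 (0.552 to 0.779) in library MGJ. Gsk3b, a kinase that marks beta-catenin for destruction, was among the higher ones in both (3.13, 3.0 to 3.26, and 2.83, 2.42 to 3.33), and Sfrp5, another secreted Frizzled-related protein, among the lower ones (0.240, 0.193 to 0.295, and 0.157, 0.0924 to 0.252). Sfrp4 was higher in the high range of library MGJ (3.86, 3.20 to 4.67) and not in library MGJ2 (0.806, 0.368 to 1.74).

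In fibroblast-like against chondrocyte-like cells of library MGJ, 21 of 55 of these genes were higher and 11 lower, beside 21.3% and 12.4% over all genes. Both genes of ligand secretion were among the higher ones, Wls, which carries Wnt proteins to the membrane (3.54, 3.37 to 3.72), and Porcn, which attaches their lipid (4.61, 3.81 to 5.61). Of 14 receptors and co-receptors 9 were higher and 1 lower, with Fzd1 at 5.59 (5.14 to 6.08) and Kremen1 at 2.30 (2.12 to 2.5), whereas the receptor kinase Ryk was at 1.0 (0.962 to 1.04). Lgr6, a receptor of R-spondins, was lower (0.117, 0.0935 to 0.144). In osteoblast-like against chondrocyte-like cells, 19 of 52 genes were higher and 4 lower in library MGJ (21.8% and 9.12% over all genes), and 13 of 40 were higher and 5 lower in library MGJ2 (18.7% and 10.0%). The antagonist Wif1 was at 113 and 365 CPM in osteoblast-like cells, with ratios of 6.68 (5.69 to 7.80) and 5.48 (4.56 to 6.58), and it was also among the leading genes of that cluster. Tcf7, a transcription factor and target of the canonical branch, was higher there as well (6.95, 4.81 to 9.83, and 6.06, 3.21 to 11.4), while Axin2 had 4 and 1 UMIs in these cells. Nkd2, another canonical target, was at 2.58 (1.57 to 4.03) and 2.49 (1.02 to 5.52). Of 6 canonical targets in library MGJ 3 were higher and 1 lower, which was Lef1 (0.267, 0.0322 to 0.976, with 2 UMIs in osteoblast-like cells, named after its value was seen).

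The genes whose levels over the classes were most like those of a member were sought among 5697 genes that reached 50 CPM in a class of both libraries, by Pearson's r of log2(CPM + 10) over 16 classes of library MGJ and 13 of library MGJ2. The classes of a library share its depth and free RNA, so r is a description. Nearest to Frzb were Prkg2 (r = 0.97 and 0.99), S100b (r = 0.97 and 0.99) and Hapln1 (r = 0.97 and 0.99). Nearest to Wnt5b were Eps8l2 (r = 0.97 and 0.99), Pak3 (r = 0.97 and 0.98) and Pcolce2 (r = 0.97 and 0.98). Wnt5a was nearest to Thbs2 (r = 0.98 and 0.99), Sfrp1 to Grem1 (r = 0.98 and 0.99) and Sfrp2 to Medag (r = 0.71 and 0.96). In library MGJ2 the r of Sfrp1 rests on 12 UMIs in osteoblast-like and 5 in chondrocyte-like cells, and that of Sfrp2 on 13 UMIs of 2 cells, so both describe 1 or 2 classes near 0. The r of Wnt5a there rests mainly on 72 UMIs in chondrocyte-like and 9 in osteoblast-like cells, with 1 in endothelial-like and 0 in neutrophil-like cells. The nearest genes to Dkk3 and Lrp5 were Bcat1 (r = 0.76 and 0.86) and Gng11 (r = 0.92 and 0.96). Wnt10b and Axin2 did not reach 50 CPM in any class.

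Few single cells held several members at this depth. After thinning to 2000 UMIs, 47.3% of the chondrocyte-like cells of library MGJ held a UMI of no member and 1.26% held UMIs of 3 or more, and in library MGJ2 these shares were 32.8% and 1.46%. In fibroblast-like cells of library MGJ they were 34.9% and 6.39%. Of the osteoblast-like cells, 129 of library MGJ and 28 of library MGJ2 were too shallow for thinning, and among the rest 73.3% and 61.8% held no member.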

How the data were processed

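Single cells of fracture callus were captured in 2 libraries, each aimed at 5000 cells. The authors aligned the reads with Cell Ranger to GRCm38 (matrix header software 4.0.0, per the file headers) and deposited UMI counts per gene and barcode. Here, barcodes with under 200 genes or over 20% mitochondrial UMIs (371 and 464 in MGJ, 70 and 133 in MGJ2) and doublet calls (140 and 222, or 1.04% and 2.84% against about 10.8% and 6.24% expected at this load, so doublets remain) were removed. Both libraries were clustered together in scanpy 1.11.5 (2000 variable genes, 30 components, 15 neighbours, Leiden resolution of 1) without 82 Wnt pathway genes. Clusters were named by the highest score over 23 marker lists (155 genes), which had to be at least 1. At least 3 markers had to be detected, that is in 10% of the cells or more and above the mean over clusters. Clusters under 20 cells, or with 2 or more leading markers of other classes that outnumbered their own, stayed unnamed. Shallow clusters also needed an own marker among their 10 leading genes. With the cells set aside in the next step, 4263 and 376 cells were unnamed. Chondrocyte-like sub-clusters with more leading markers of other classes than of chondrocytes were set aside, a rule made after their leading genes were seen. Osteoblast markers were not counted in this rule, because hypertrophic chondrocytes share them. UMIs were summed per library and class. Intervals are exact Poisson (levels), conditional binomial (ratios) and Clopper-Pearson (shares) intervals. A level of 0 is given with the limit that 3 counts would set. Code for the ratios was tested on simulated data. Shares were taken after thinning cells to 2000 UMIs. The members, the pathway and marker lists and the named genes (all members, and up to 3 genes of each pathway list by level in the skeletal classes, with up to 3 genes most like a member, that of Lrp6 not being reported here) were chosen with earlier results of these data known. Positions are from GENCODE M21, which held 32158 of the 32285 identifiers, and promoter sequences from RefSeq. The 5000 aimed at is from the labels and the days are from the design text, and aligner settings are not given in the sources used here. The alternatives changed the clustering resolution, filters, naming, weighting, Col10a1 limits, fold and minimum of UMIs.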

Additional observations from a re-analysis of the deposited data

Results flagged for a closer look

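The barcodes removed by the filters held UMIs of the members too. In library MGJ, 975 removed barcodes held 910 UMIs of the 10 genes, a summed level of 246 CPM (230.4 to 263), with Frzb at 76.8 CPM and Sfrp1 at 43.8 CPM. In library MGJ2, 425 removed barcodes held 100 UMIs, a summed level of 33.1 CPM (26.9 to 40.2), of which 45 were of Lrp6 and 20 of Axin2. These barcodes entered no comparison, and 3 UMIs would be 0.811 CPM (MGJ) and 0.992 CPM (MGJ2).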

How the results depend on the processing

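Over 16 alternative settings, 646 values were recomputed. Of the member counts 71 lay within 1.5 times the reported count and 12 did not. Of the member ratios 418 lay within their counting interval, 143 moved beyond it and 2 reversed. The reversed ratios were those of Sfrp1 (1.09) and Sfrp2 (1.11) between high and low Col10a1 cells of library MGJ at a resolution of 0.5, where 145 in place of 500 cells were in the high range. At that resolution 3 members in place of 5 passed 2-fold in this comparison, and at the reported resolution 8 passed a fold of 1.5. In library MGJ2 the high-to-low count of 1 became 3 with every cell weighted equally, 2 with the Col10a1 limits halved, 3 at a fold of 1.5, 0 at a fold of 3 and 4 with no minimum of UMIs. In osteoblast-like over chondrocyte-like cells, the count of 3 in library MGJ became 6 with each cell named by its own marker score, 8 with every cell weighted equally and 9 at a fold of 1.5. In library MGJ2 the count of 2 became 4 at a fold of 1.5 and 4 with no minimum of UMIs. The causes were not tested. Shares of all genes past the fold are given for the reported settings only. The counts under the alternatives are therefore not read as results about the members. Counts ranged from 6 to 7 (MGJ) and 7 to 9 (MGJ2) for chondrocyte-like over all other cells and from 6 to 8 for fibroblast-like over chondrocyte-like cells. No value could be given for osteoblast-like cells at a resolution of 0.5, with at most 10% mitochondrial UMIs or with at least 500 genes, nor for high over low Col10a1 cells of library MGJ2 at resolutions of 0.5 and 2. No paired analysis was possible because the labels give the 2 libraries neither groups nor replicate numbers. Depth limits Wnt10b, Sfrp1, Sfrp2 and Axin2 in library MGJ2, with 1 to 18 UMIs in chondrocyte-like and osteoblast-like cells where any were counted.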
